A study of Mus musculus with 12 samples.

Results

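The replicative DNA helicase of mouse hepatocytes was followed through its 10 genes Mcm2, Mcm3, Mcm4, Mcm5, Mcm6, Mcm7, Cdc45, Gins1, Gins2 and Mcm10, which were chosen by symbol as the parts and an activator of 1 protein complex. All 10 were found among the 18227 genes of the count table, and all 10 passed the filter on low counts that left 15647 genes to test. Before a cell copies its DNA, the products of Mcm2 to Mcm7 are loaded onto replication origins as a ring around the double strand. In S phase, Cdc45 and the GINS complex, to which Gins1 and Gins2 belong, join that ring and turn it into the moving helicase, and Mcm10 acts at the last step of that activation. Adult hepatocytes rarely divide, but after part of the liver is removed those that remain enter the cell cycle and copy their DNA, and the transcription of several helicase genes is known to be raised by E2F factors on the way into S phase.

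RNA sequencing of polyadenylated RNA covered 12 libraries from wild-type (WT) BALB/C male mice aged 8 weeks, 3 in each of 4 groups. All mice had received 2 intraperitoneal doses, 2 days apart, of 200 µg antibody in 100 µl PBS, and had lost 70% of the liver on the day of the second dose. The antibody was either anti-GR1, directed against an antigen of granulocytes, or an isotype-matched control antibody that targets nothing in the mouse. Hepatocytes were prepared on postoperative day 1 (POD1) or 2 (POD2) by collagenase perfusion, filtering and slow centrifugation, without sorting, and the series title names the removal of granulocytic myeloid-derived suppressor cells as the intervention. No group without hepatectomy was used. Whether each library came from its own animal is not stated in the labels. The p-values weigh group differences only against the scatter of these samples, and that scatter may be technical.

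Some libraries went against a reading of the design as 12 separate samples. Total counts lay between 13189392 and 15822043. Isotype POD2 replicates 1 and 2 differed by a chi-square of 1.62 per gene and anti-Gr1 POD2 replicates 1 and 2 by 5.27, whereas 63 of the 66 pairs differed by at least 58.3. Counting noise alone gives about 1, so the first pair was little above it and the second some way above it, but both were far closer than any other pair of the same group. With a limit of 10 per gene, each was counted as 1 sample, which left 10 samples, with n = 3 in each POD1 group and n = 2 in each POD2 group. The third close pair joined anti-Gr1 POD1 replicate 3 and anti-Gr1 POD2 replicate 3, at 3.51 per gene, although the labels place them on different days. Both were kept in their labelled groups, and results are also given without them. Ly6g, which encodes the main antigen of the antibody, stood between 0.246 and 1.98 CPM (counts per 1e6 counts of the library) with isotype and between 24.2 and 54.9 CPM where the label is anti-Gr1, that is, higher where depletion was labelled. Every direction below therefore refers to libraries as labelled. Expression levels are CPM over library sizes corrected with TMM factors (the trimmed mean of M-values of each library against a reference), and rest for these 10 genes on 59 to 1838 counts per library.

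A total of 6 of the 10 genes, Mcm5, Mcm6, Mcm7, Cdc45, Gins1 and Gins2, were 3.48 to 4.23 times as high at POD2 as at POD1 in the isotype libraries. Between these days 12.6% of all genes tested rose and 19.7% fell. In the libraries labelled anti-Gr1 none of the 6 differed detectably between the days, and 0 of all genes passed the test. At POD2 the same 6 were 3.19 to 4.3 times lower with anti-Gr1 than with isotype, where 9.22% of all genes were lower and 16.1% higher. The other ring genes, Mcm2, Mcm3 and Mcm4, moved less and did not pass the test, and Mcm10 varied widely within groups.

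**Figure D1:**
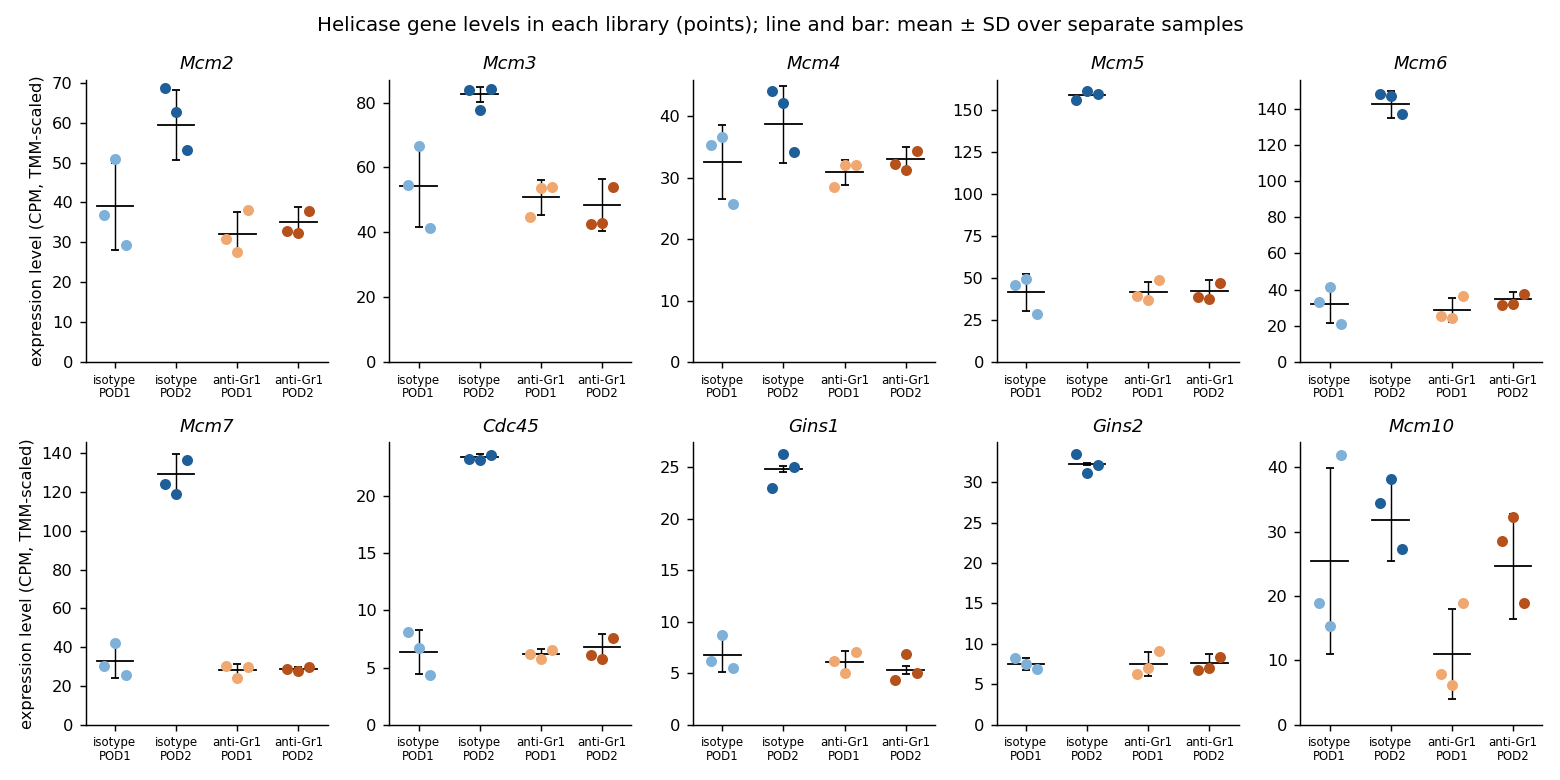
Expression level in TMM-scaled CPM (vertical axes, linear from 0) of each helicase gene, with 1 point per library in the 4 groups and lines and bars for the mean ± SD over separate samples (n = 3 at POD1, n = 2 at POD2). The isotype POD2 points of Mcm5, between 156 and 161 CPM, lie far above the highest other library at 49.3 CPM, while those of Mcm4 overlap the other groups.

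Mcm5 (ENSMUSG00000005410) lies at chr8:75109569-75128439 on the plus strand of GRCm38, and its product closes, together with Mcm2, the gate through which the ring opens around DNA. Its level was 45.8, 49.3 and 28.7 CPM in isotype POD1 replicates 1 to 3, and 156, 161 and 159 CPM in isotype POD2. With anti-Gr1 it was 39.2, 36.6 and 48.4 CPM at POD1 and 38.4, 37.6 and 46.7 CPM at POD2. The 3 isotype POD2 libraries thus stood apart, the lowest of them 3.16 times the highest of the other 9, and those 9 overlapped freely. For this gene and those below, the share of all genes that separate in this way was not counted.

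Mcm6 (ENSMUSG00000026355, chr1:128331590-128359664, minus strand) encodes a ring subunit next to Mcm2 and Mcm4. Its level was 33.2, 41.5 and 21.2 CPM in isotype POD1 and 148, 147 and 137 CPM in isotype POD2. In the libraries labelled anti-Gr1 it was 25.1, 24.2 and 36.3 CPM at POD1 and 31.4, 32.2 and 37.5 CPM at POD2. Again the isotype POD2 libraries shared no value with the rest, with a gap of 3.3 times.

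Mcm7 (ENSMUSG00000029730, chr5:138164583-138172422, minus strand) encodes the ring subunit that sits beside Mcm4. It was measured at 30.4, 42.2 and 25.6 CPM in isotype POD1 and at 124, 119 and 137 CPM in isotype POD2. With anti-Gr1 the values were 30.1, 24.0 and 29.9 CPM at POD1 and 28.5, 27.6 and 29.6 CPM at POD2. The gap between isotype POD2 and the highest other library was 2.81 times. Exons of Mcm7 overlap those of Cops6 and Ap4m1 on the opposite strand, and no source used here gives the strand setting of the counting, so reads of the overlap cannot be assigned with certainty. Neither neighbour passed the test between the days with isotype (log2 fold change 0.02 for Cops6, adjusted p = 0.938, and 0.43 for Ap4m1, adjusted p = 0.359).

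The remaining ring genes differed less between the groups. Mcm2 (ENSMUSG00000002870, chr6:88883474-88898780, minus strand), the other side of the gate, was at 53.2 to 68.7 CPM in the 3 isotype POD2 libraries and at 27.5 to 50.9 CPM in the other 9. Mcm3 (ENSMUSG00000041859, chr1:20802968-20820312, minus strand), the neighbour of Mcm5 in the ring, was at 77.8 to 84.2 CPM in isotype POD2 and 41.3 to 66.6 CPM elsewhere. For both genes all isotype POD2 libraries were above all others, but by gaps of only 1.05 and 1.17 times. Isotype POD2 replicates 1 and 2 count as 1 sample, and the share of all genes with such a gap was not counted. Mcm4 (ENSMUSG00000022673, chr16:15623897-15637400, minus strand), which forms a stable subassembly with Mcm6 and Mcm7, ranged from 34.3 to 44.2 CPM in isotype POD2 and from 25.7 to 36.7 CPM elsewhere, so its groups overlapped.

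Cdc45 (ENSMUSG00000000028, chr16:18780447-18811987, minus strand) encodes the subunit that, with GINS, latches the ring shut on a single strand. Its level was 8.09, 6.72 and 4.31 CPM in isotype POD1 and 23.2, 23.1 and 23.7 CPM in isotype POD2. In the anti-Gr1 libraries it was 6.23, 5.75 and 6.56 CPM at POD1 and 6.14, 5.76 and 7.62 CPM at POD2. The isotype POD2 values lay within 1 CPM of each other and 2.86 times above the highest of the rest. Exons of Cdc45 overlap those of Ufd1 on the opposite strand, and Ufd1 did not pass the test between the days with isotype (log2 fold change -0.01, adjusted p = 0.96).

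Gins1 (ENSMUSG00000027454, chr2:150905400-150931280, plus strand) and Gins2 (ENSMUSG00000031821, chr8:120578633-120589304, minus strand) encode subunits of the small GINS complex. Gins1 was at 6.15, 8.66 and 5.51 CPM in isotype POD1, 23.0, 26.3 and 25.0 CPM in isotype POD2, 6.16, 5.02 and 7.06 CPM in anti-Gr1 POD1, and 4.31, 6.81 and 4.99 CPM in anti-Gr1 POD2. Gins2 was at 8.31, 7.48 and 6.82 CPM in isotype POD1, 33.6, 31.1 and 32.2 CPM in isotype POD2, 6.30, 6.99 and 9.13 CPM in anti-Gr1 POD1, and 6.80, 7.01 and 8.39 CPM in anti-Gr1 POD2. In both genes isotype POD2 was alone at the top, by 2.65 and 3.41 times. Gins2 overlaps exons of Gse1 on the opposite strand, and Gse1 gave a log2 fold change of -0.37 between the days with isotype (adjusted p = 0.508).

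Mcm10 (ENSMUSG00000026669, chr2:4989714-5012791, minus strand), which is not a stable part of the helicase but an activator of it, had another pattern. It was measured at 18.9, 15.4 and 42.0 CPM in isotype POD1 and at 34.4, 38.1 and 27.2 CPM in isotype POD2. In the anti-Gr1 libraries it was 7.79, 6.21 and 18.9 CPM at POD1 and 28.6, 32.2 and 18.9 CPM at POD2. Outside isotype POD2 its libraries spanned 6.75 times, against 1.42 to 2.01 times for the other 9 genes, and its highest value was in an isotype POD1 library. The equal values of 18.9 CPM in the 2 anti-Gr1 replicates 3 are those of the near-identical pair that crosses the days.

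With the isotype antibody, 6 of the 10 genes rose from POD1 to POD2 and 0 fell, where 12.6% of all genes tested rose and 19.7% fell (edgeR's quasi-likelihood test, Benjamini-Hochberg adjusted p under 0.05 over all genes). The median log2 change was 1.80 over the 10 genes and -0.06 over all genes. Gins2 rose by 2.02 ± 0.201 (SE, 4.05 times, adjusted p = 0.000783) and Mcm7 by 1.91 ± 0.213 (adjusted p = 0.00105). Mcm6 rose by 2.08 ± 0.286 (4.23 times, adjusted p = 0.00202) and Mcm5 by 1.87 ± 0.241 (adjusted p = 0.00166). Cdc45 and Gins1 both rose by 1.80, with SE of 0.255 and 0.231 and adjusted p of 0.00223 and 0.00166. All 6 were higher in each isotype POD2 library than in any isotype POD1 library, but isotype POD2 replicates 1 and 2 count as 1 sample. How many of all genes separate in this way was not counted.

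The other 4 genes did not pass this test. Mcm2 and Mcm3 gave log2 changes of 0.54 (95% interval -0.02 to 1.09, adjusted p = 0.122) and 0.53 (0.06 to 1.01, adjusted p = 0.0799). Mcm4 gave 0.18 (-0.24 to 0.59, adjusted p = 0.482), and Mcm10 gave 0.25 (-1.05 to 1.54, adjusted p = 0.759). When all 12 libraries were counted as separate samples, 8 of 10 rose, where 23.0% of all genes did. Mcm2 and Mcm3 were then added, at 0.66 (adjusted p = 0.0201) and 0.60 (adjusted p = 0.0164). Without the pair that crosses the days the count was 6, where 16.8% of all genes rose.

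The size of these changes depends on the scaling, because isotype POD2 libraries had the lowest scaling factors (0.602 to 0.823, against 0.991 to 1.29 in the rest). Without scaling factors the same 6 genes rose, by log2 changes of 1.11 (Cdc45) to 1.42 (Mcm6), but the 4 that did not pass turned below 0, from -0.11 for Mcm2 and -0.15 for Mcm3 to -0.48 for Mcm4 and -0.43 for Mcm10. In that setting 584 genes rose and 6551 fell, against 1979 and 3079 with TMM, and the median of all genes was -0.73.

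A ratio of counts within a library needs no scaling. Counts of Mcm5, Mcm6 and Mcm7 together were 2.18, 2.34 and 2.52 times those of Mcm2, Mcm3 and Mcm4 in the isotype POD2 libraries, and 0.748 to 0.923 times in the other 9. This grouping was chosen after the values were seen and is given without a test. Per kilobase of exon, Mcm3 made up the largest share of the 6 ring transcripts outside isotype POD2, with 23.7% to 30.5%, followed by Mcm5. In isotype POD2 the Mcm5 share was the largest, at 27.2% to 28.8%, that of Mcm6 was 21% to 22.4% and that of Mcm3 14.8% to 16.0%. The mix of ring transcripts therefore differed in this group, not only their total.

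**Figure D2:**
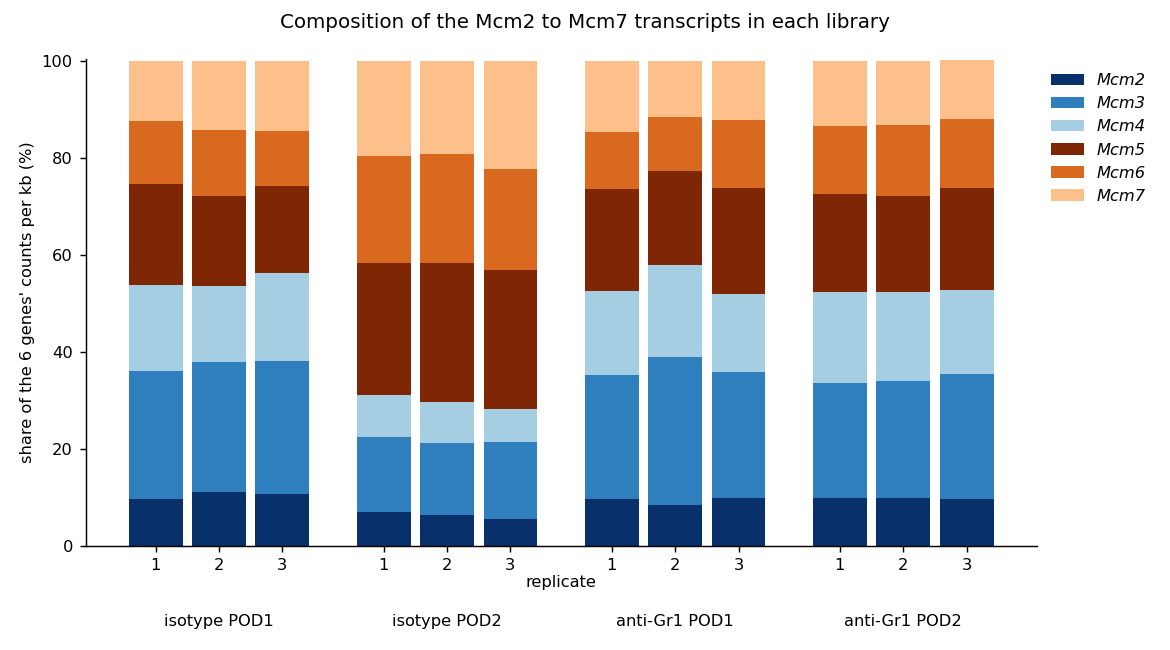
Share of the Mcm2 to Mcm7 counts per kilobase (vertical axis, percent) taken by each gene, with 1 stacked bar for each of the 12 libraries. The Mcm5, Mcm6 and Mcm7 bars (brown to orange) widen in the 3 isotype POD2 libraries, where Mcm5 reached 27.2% to 28.8%, and look alike in the other 9.

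At POD2, libraries labelled anti-Gr1 were compared with those labelled isotype, whether or not depletion took place. Of the 10 genes, the anti-Gr1 libraries had 6 lower than isotype and 0 higher, where 9.22% of all genes were lower and 16.1% higher. The median log2 change was -1.73 over the 10 genes and 0.10 over all genes. This contrast shares the isotype POD2 libraries with the previous one, so the same high values enter both.

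Gins1 fell by 2.10 ± 0.265 on the log2 scale (SE, 4.3 times lower, adjusted p = 0.00258) and Mcm7 fell by 2.05 ± 0.244 (4.13 times lower, adjusted p = 0.00235). Gins2 fell by 1.96 ± 0.229 (adjusted p = 0.00217), Mcm6 by 1.92 ± 0.326 (adjusted p = 0.00542) and Mcm5 by 1.79 ± 0.275 (adjusted p = 0.00408). Cdc45 fell by 1.67 ± 0.289 (3.19 times lower, adjusted p = 0.00583). For each of these genes every anti-Gr1 POD2 library was below every isotype POD2 library, which describes the same values as the calls. The share of all genes that separate in this way was not counted.

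Mcm2 and Mcm3 gave log2 changes of -0.64 (95% interval -1.26 to -0.02, adjusted p = 0.117) and -0.65 (-1.18 to -0.13, adjusted p = 0.0701) and did not pass. Mcm4 gave -0.11 (-0.57 to 0.35, adjusted p = 0.708) and Mcm10 -0.25 (-1.67 to 1.18, adjusted p = 0.797). With all 12 libraries separate, 8 of 10 were lower, where 21.1% of all genes were, Mcm2 at -0.84 (adjusted p = 0.00678) and Mcm3 at -0.82 (adjusted p = 0.00373). Without the pair that crosses the days the same 6 were lower, where 4.34% of all genes were, and anti-Gr1 POD2 then held only 1 separate sample, assumed to vary like the others. The split of all genes moved with the scaling, from 2518 higher and 1442 lower with TMM to 3188 and 442 without scaling factors, 2099 and 1776 with DESeq2 size factors and 2020 and 1843 without pancreatic acinar genes, while 6 or 7 of the 10 helicase genes were lower and 0 higher in each. Without scaling factors the median of all genes was 0.51, and Mcm4 and Mcm10 stood above 0, at 0.29 and 0.13. Cops6, whose exons overlap Mcm7, was also lower at POD2, by -0.72 ± 0.22 (adjusted p = 0.0424).

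**Figure D3:**
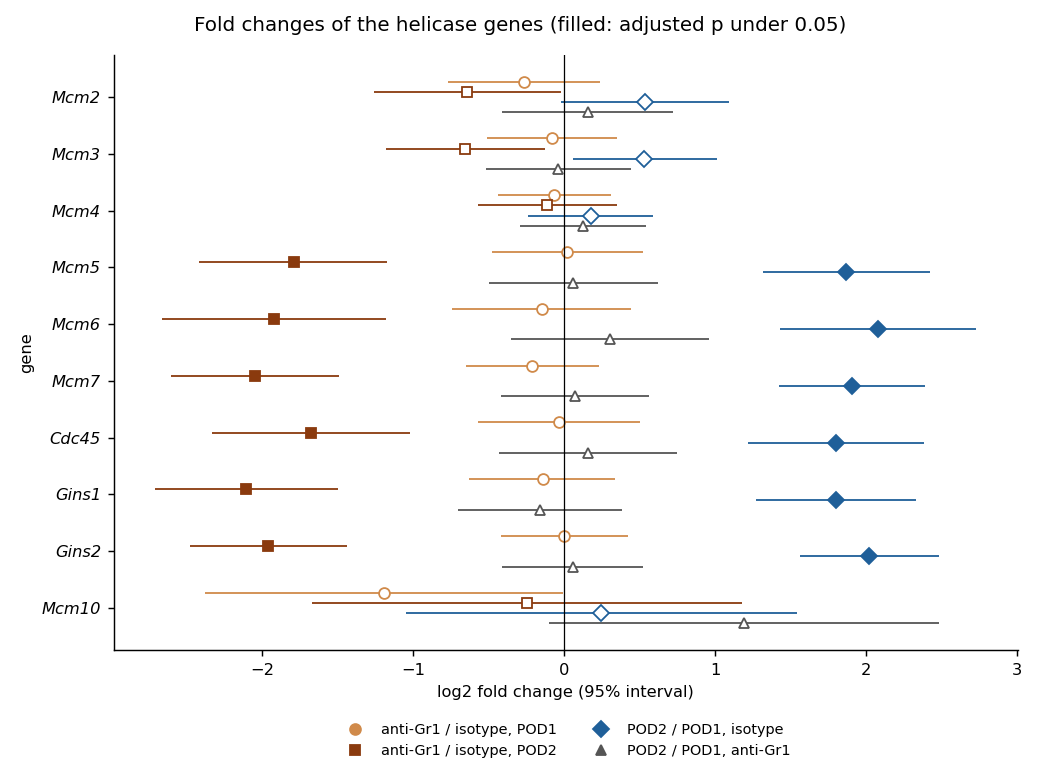
Log2 fold change (horizontal axis) with its 95% interval for each helicase gene in 4 comparisons, filled where the adjusted p was under 0.05. The 6 genes Mcm5, Mcm6, Mcm7, Cdc45, Gins1 and Gins2 have filled symbols near 2 between the days with isotype and near -2 between the antibodies at POD2, and all other symbols are open.

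At POD1 none of the 10 genes passed between the antibodies, where 0.607% of all genes were higher and 0.128% lower with anti-Gr1 (95 and 20 genes, or 50 and 20 without scaling factors). With edgeR, Mcm10 was the 1 gene of the 10 with an unadjusted p under 0.05, as were 2565 of all 15647 genes. DESeq2 called 0 of the 10 and 785 of all genes. For 9 genes the log2 change lay between -0.26 and 0.02, with 95% intervals that reach from -0.77 (Mcm2) to 0.52 (Mcm5). For the 6 genes that were lower at POD2, the lower bounds at POD1 ran from -0.74 (Mcm6) to -0.42 (Gins2), and each gene's change at POD2 lay below its own. Mcm10 gave -1.20 ± 0.52 (adjusted p = 0.303), with 10.98 ± 6.94 CPM in anti-Gr1 against 25.4 ± 14.4 CPM in isotype (SD, n = 3 each). Without anti-Gr1 POD1 replicate 3, the library that matches one labelled POD2, Mcm10 was lower by -1.87 (adjusted p = 0.043).

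Between the days with anti-Gr1, 0 of the 10 genes passed, and so did 0.0% of all genes upward and 0.0% downward. At an unadjusted p under 0.05 edgeR counted 0 of the 10 and 769 of 15647 genes, and DESeq2 called 0 genes in all. The log2 changes of the 6 genes that rose with isotype were 0.06 for Mcm5 (95% interval -0.50 to 0.62), 0.31 for Mcm6 (-0.35 to 0.96), 0.07 for Mcm7 (-0.42 to 0.56), 0.16 for Cdc45 (-0.43 to 0.75), -0.16 for Gins1 (-0.70 to 0.38) and 0.06 for Gins2 (-0.41 to 0.52). The upper bounds were below the rises seen with isotype. Mcm10 gave 1.19 ± 0.565 (adjusted p = 0.72). Since the close pair places nearly the same library on both days, the comparison was repeated without it: 0 of the 10 genes and 545 genes in all then passed, and Mcm10 gave 2.13 ± 0.54 (adjusted p = 0.0914).

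A test of the difference itself, the antibody effect at POD2 minus that at POD1, called the same 6 genes lower and 0 higher, where 2.1% of all genes were lower and 3.51% higher. The differences were -1.81 for Mcm5 (adjusted p = 0.0291), -1.77 for Mcm6 (0.044), -1.83 for Mcm7 (0.0207), -1.64 for Cdc45 (0.041), -1.96 for Gins1 (0.0215) and -1.96 for Gins2 (0.0161), all on the log2 scale. Values for Mcm2, Mcm3, Mcm4 and Mcm10 were -0.38, -0.57, -0.05 and 0.95, none of which passed. These calls are less firm than those above. Without the pair that crosses the days only Gins2 passed (-2.04, adjusted p = 0.0494), where 0.387% of all genes were lower, although the 6 differences stayed between -2.04 and -1.79. The 6 calls were lost without anti-Gr1 POD2 replicate 3, isotype POD2 replicate 3 or the summed anti-Gr1 POD2 replicates 1 and 2. Every other gene lost its call there too, and each of these fits left 1 sample in a group. The median difference over the 10 genes was then -1.85, -1.69 and -1.56. With all 12 libraries separate the 6 passed, where 7.72% of all genes were lower. The split of all genes was 549 higher and 328 lower with TMM, 302 and 368 with DESeq2 size factors, 296 and 350 without acinar genes and 1145 and 128 without scaling factors.

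Levels of different genes were compared per kilobase of exon, where the length is the union of all annotated exons and exceeds that of any single transcript. In isotype POD1 the order of CPM per kilobase ran from Mcm3 (14.4 ± 3.37, SD, n = 3) through Mcm5 (10.3 ± 2.77), Mcm4 (9.08 ± 1.66), Mcm7 (7.39 ± 1.94), Mcm6 (6.85 ± 2.19), Mcm2 (5.61 ± 1.57), Gins1 (4.47 ± 1.10) and Mcm10 (3.31 ± 1.88) to Gins2 (1.84 ± 0.182) and Cdc45 (1.82 ± 0.546). Every pair of neighbours in this order overlapped within 1 SD. Mcm3, Mcm5 and Mcm4 also led, in that order, in both anti-Gr1 groups. In isotype POD2 the order began with Mcm5 (39.8 ± 0.122, SD, n = 2), Mcm6 (30.5 ± 1.56), Mcm7 (29.2 ± 2.41), Mcm3 (22.0 ± 0.618) and Gins1 (16.4 ± 0.175), followed by Mcm4 (10.8 ± 1.76), Mcm2 (8.55 ± 1.27), Gins2 (7.87 ± 0.0316), Cdc45 (6.68 ± 0.0936) and Mcm10 (4.13 ± 0.829). Of these neighbours, Mcm6 and Mcm7, Mcm4 and Mcm2, and Mcm2 and Gins2 overlapped within 1 SD. The 10 genes together took 0.0429% to 0.0607% of a library's counts in isotype POD2 and 0.0223% to 0.0356% elsewhere.

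The promoters of the genes are shown because E2F factors, which bind words such as TTTCCCGC, TTTCGCGC, TTTGGCGC and TTTGCCGC, are the best known regulators of this family. RefSeq promoters (GRCm38.p6, 250 bases before to 50 after the annotated start) were matched by symbol for 7 of the 10 genes. Those of Mcm5, Mcm6 and Mcm7 (the first of 2 entries), which rose with isotype, of Mcm3, which did not pass, and of Cdc45, which rose, read 5′ to 3′ on the gene's strand, with every match to these 4 words on either strand in capitals:
Mcm5, chr8:75109259-75109558, plus strand: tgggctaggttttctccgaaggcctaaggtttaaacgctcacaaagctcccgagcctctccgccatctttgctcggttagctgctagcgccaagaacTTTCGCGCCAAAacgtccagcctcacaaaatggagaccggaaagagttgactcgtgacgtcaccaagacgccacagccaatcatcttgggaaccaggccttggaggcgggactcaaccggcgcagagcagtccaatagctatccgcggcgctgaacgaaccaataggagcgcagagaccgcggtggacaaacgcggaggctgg
Mcm6, chr1:128359656-128359955, minus strand: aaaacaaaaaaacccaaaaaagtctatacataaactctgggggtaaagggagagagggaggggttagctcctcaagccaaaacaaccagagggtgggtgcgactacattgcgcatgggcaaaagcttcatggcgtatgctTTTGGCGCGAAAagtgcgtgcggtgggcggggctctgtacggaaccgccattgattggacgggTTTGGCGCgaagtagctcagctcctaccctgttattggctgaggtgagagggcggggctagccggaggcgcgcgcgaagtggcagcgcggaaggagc
Mcm7, chr5:138171834-138172133, minus strand: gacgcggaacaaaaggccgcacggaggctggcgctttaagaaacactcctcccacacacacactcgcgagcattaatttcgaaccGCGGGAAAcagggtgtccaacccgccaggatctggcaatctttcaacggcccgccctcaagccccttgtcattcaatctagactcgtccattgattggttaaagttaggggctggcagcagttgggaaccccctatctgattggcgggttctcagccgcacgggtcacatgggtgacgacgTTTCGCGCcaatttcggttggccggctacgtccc
Mcm3, chr1:20820263-20820562, minus strand: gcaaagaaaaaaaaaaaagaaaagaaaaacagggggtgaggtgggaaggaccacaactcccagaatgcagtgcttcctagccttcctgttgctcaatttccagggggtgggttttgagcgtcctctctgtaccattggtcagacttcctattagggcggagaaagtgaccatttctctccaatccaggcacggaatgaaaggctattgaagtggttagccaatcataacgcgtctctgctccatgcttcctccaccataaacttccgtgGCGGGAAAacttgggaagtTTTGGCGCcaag
Cdc45, chr16:18811923-18812222, minus strand: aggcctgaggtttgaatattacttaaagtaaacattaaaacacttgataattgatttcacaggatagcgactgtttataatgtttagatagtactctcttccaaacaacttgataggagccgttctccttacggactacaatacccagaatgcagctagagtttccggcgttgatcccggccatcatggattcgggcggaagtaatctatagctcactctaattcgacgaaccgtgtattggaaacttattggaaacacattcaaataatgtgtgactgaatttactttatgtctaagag

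Mcm6 held 3 matches, which began 110, 106 and 47 bases before the start, and the first of these overlap. Mcm5 held 2 overlapping matches at 153 and 149 bases before the start. Mcm7 held 1 match 165 bases before the start and 1 that began 16 bases after it, and Mcm3 held matches 19 and 38 bases after it. Cdc45, Mcm2, Mcm10 and the second entry of Mcm7 had none in this window. Among all RefSeq promoters, 744 of 32851 promoters (2.26%), or 704 of 27025 genes (2.6%), held at least 1 match. Presence of a word did not follow the changes in level one to one: Mcm3 held matches and did not pass, whereas Cdc45 held none and rose. A match is a description of the sequence only.

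Around the helicase, 25 further genes of origin licensing and firing were taken as a list. With isotype, 12 of the 25 rose from POD1 to POD2 and 1 fell, where 12.6% of all genes rose and 19.7% fell, and the median log2 change was 0.57. The smallest p-values belonged to Dbf4, the activating subunit of the Cdc7 kinase (1.70 ± 0.194, adjusted p = 0.00114), Gmnn, the inhibitor of licensing factor Cdt1 (1.48 ± 0.178, adjusted p = 0.00135), and Mcm8, an MCM relative of homologous recombination (1.96 ± 0.244, adjusted p = 0.00154). Recql4, a helicase needed for firing, rose by 2.12 ± 0.288, and Clspn, the fork mediator claspin, by 2.42 ± 0.345. The other 2 GINS subunits rose less than Gins1 and Gins2 did in point estimate, by 1.14 ± 0.298 for Gins3 (adjusted p = 0.0208) and 0.55 ± 0.164 for Gins4 (adjusted p = 0.034), and the difference between subunits was not tested. The genes of the origin recognition complex, which marks origins all through the cycle, split: Orc5 rose (0.57, adjusted p = 0.0487), Orc4 fell by 0.52 (adjusted p = 0.039), and Orc1, Orc2, Orc3 and Orc6 did not pass.

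At POD2, 12 of the 25 were lower with anti-Gr1 and 0 higher, where 9.22% of all genes were lower and 16.1% higher, with a median of -0.69. Dbf4 (-1.67 ± 0.221), Gmnn (-1.47 ± 0.2), Mcm8 (-1.77 ± 0.276), Tipin (-1.05 ± 0.167), a partner of the fork protection protein Timeless, and Recql4 (-2.0 ± 0.326) had the smallest p-values, with adjusted p from 0.00288 to 0.00487. Gins3 and Gins4 were lower by -1.22 and -1.05. At POD1, 0 of the 25 and 115 of 15647 genes passed between the antibodies with edgeR. An unadjusted p under 0.05 was found for 3 of the 25 and 2565 genes, and DESeq2 called 0 and 785. Between the days with anti-Gr1, 0 of the 25 and 0 of all genes passed with edgeR or DESeq2. There edgeR gave an unadjusted p under 0.05 for 0 of the 25 and 769 genes. In the difference between the days 4 of the 25 were lower, where 2.1% of all genes were. Cdc6 and Cdt1, the loaders of the ring, gave 0.54 (adjusted p = 0.277) and 0.93 (adjusted p = 0.0143) between the days with isotype.

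**Figure D4:**
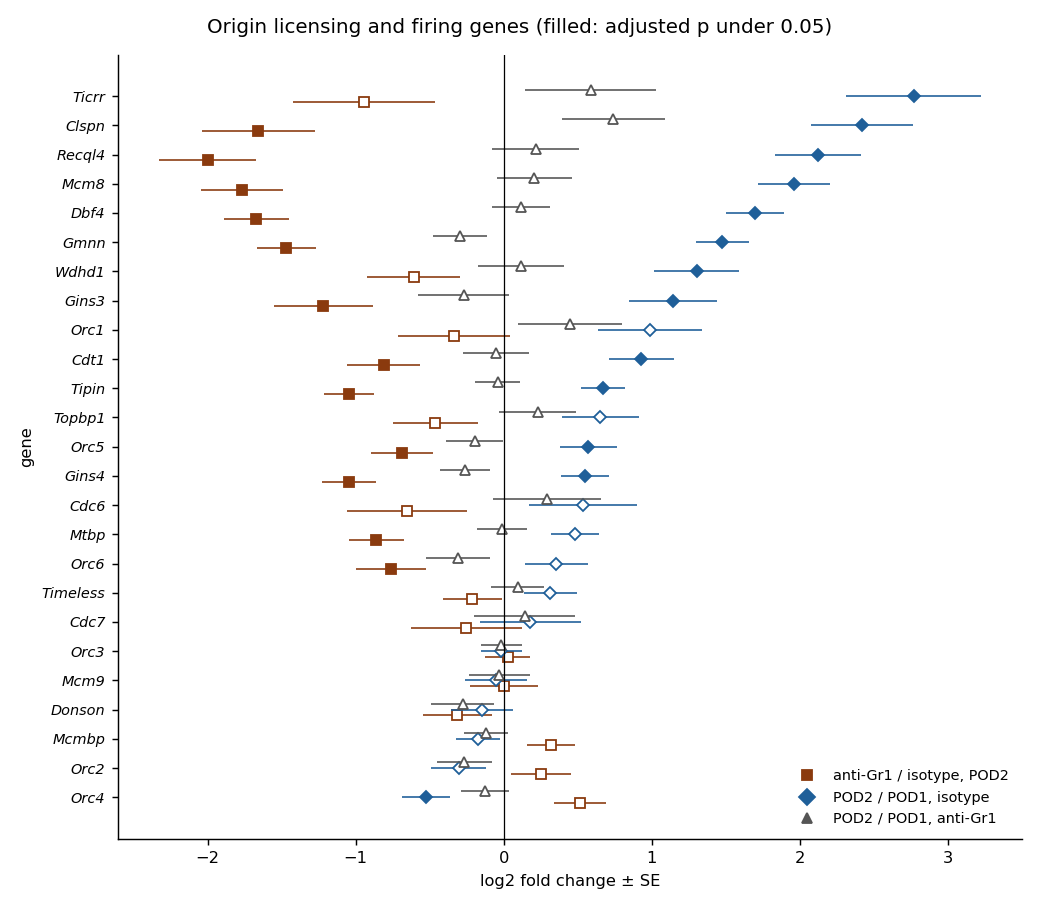
Log2 fold change ± SE (horizontal axis) of 25 origin licensing and firing genes in 3 comparisons, sorted by the change between the days with isotype and filled where the adjusted p was under 0.05. Dbf4, Gmnn, Mcm8 and Recql4 are filled on both sides, at 1.48 to 2.12 with isotype and at -1.47 to -2.0 at POD2, and no gene is filled between the days with anti-Gr1.

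Marks of the cell cycle moved in the same samples. Of 8 such genes, 6 rose with isotype from POD1 to POD2, where 12.6% of all genes did. They were Mki67, a mark of cycling cells (3.80 ± 0.521, adjusted p = 0.00209), the mitotic cyclin Ccnb1 (4.31 ± 0.413), the S phase cyclin Ccna2 (2.80 ± 0.422), Ccne1 (1.62 ± 0.225), E2f1 (1.19 ± 0.167) and the sliding clamp Pcna (0.81 ± 0.172). The same 6 were lower with anti-Gr1 at POD2, where 9.22% of all genes were, by -2.71 for Mki67, -3.07 for Ccnb1 and -1.0 for Pcna. The G1 cyclins Ccnd1 and Ccne2 did not pass in either comparison.

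Over the 10 samples, the mean z-score of the helicase genes was 1.67 and 1.39 in the 2 isotype POD2 samples and -0.82 to 0.12 in the others. Pearson's r with this mean was highest for Mcm6 (0.993) and lowest for Mcm4 (0.67) and Mcm10 (0.44) among the members, each of which is part of the mean. Outside the list, the protein-coding genes with the most similar profile were Sae1 (0.985), Ccna2 (0.984), Rrm1 (0.984), Rrm2 (0.98), Ccne1 (0.98), Bard1 (0.979), Rmi2 (0.979), Cenps (0.978), Map3k20 (0.978) and Chaf1a (0.977). Rrm1 and Rrm2 encode ribonucleotide reductase, which makes DNA precursors, and Chaf1a a subunit of the chromatin assembly factor of replicating DNA. These r values largely restate that 2 samples stand apart and are given as a description.

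The cell makeup of the libraries moved with the same group. In bulk RNA, fewer cells of a type and less RNA per cell cannot be told apart. The summed level of 8 hepatocyte markers was 112034 to 116394 CPM in isotype POD2, against 7859 to 13782 CPM in isotype POD1, and, with anti-Gr1, 3134 to 29459 CPM at POD1 and 23773 to 29060 CPM at POD2, so the labelled cell type had its defining transcripts in every library but at 0.311% to 9.22% of counts. Between the days with isotype 4 of the 8 rose, where 12.6% of all genes did, Alb by 4.11 (adjusted p = 0.0377). At POD2 0 of the 8 passed between the antibodies (edgeR), where 9.22% of all genes were lower with anti-Gr1 and 16.1% higher. The median log2 change of the 8 was -1.35 in that comparison (range -2.51 to 0.54), with 1 of them above 0.

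Markers of other liver cells went the other way. The sum of 7 Kupffer cell and macrophage markers was 889.9 to 1336 CPM in isotype POD2, against 3991 to 5910 CPM in isotype POD1, and, with anti-Gr1, 4876 to 6984 CPM at POD1 and 3057 to 4737 CPM at POD2, with 7 of 7 lower between the days with isotype, where 19.7% of all genes fell. Sinusoidal endothelial markers summed to 852 to 1108 CPM in isotype POD2 and 2129 to 4346 CPM in the other groups, with 6 of 6 lower between the days with isotype and 6 of 6 higher with anti-Gr1 at POD2, where 16.1% of all genes were higher. Mature neutrophil markers summed to 58.4 to 147 CPM in isotype POD2, 647 to 865 CPM in isotype POD1 and 3186 to 8975 CPM in the anti-Gr1 groups. Between the days with isotype, 8 of these 10 neutrophil genes fell, as did 2 of 5 T and NK cell, 3 of 5 B and plasma cell, 5 of 6 erythroid, 1 of 5 stellate cell and 0 of 4 cholangiocyte markers. Of the 4 granulocyte precursor genes, Mpo and Ctsg fell and Prtn3 rose between the days with isotype, by 2.89 (adjusted p = 0.00209), and Ctsg had 0 counts in isotype POD2 replicate 3. Pancreatic acinar genes took 6.33% to 23.7% of counts in isotype POD2, 0.0112% to 8.35% in isotype POD1, and, with anti-Gr1, 0.133% to 19.7% at POD1 and 2.12% to 10.6% at POD2. In some libraries this share was above that of the hepatocyte markers, as in anti-Gr1 POD1 replicate 1 (19.7% against 0.311%). In others it was below, as in isotype POD1 replicate 3 (0.0112% against 1.71%). With the acinar genes removed before scaling, the 6 helicase genes kept their calls in both comparisons that involve isotype POD2. The part of the cell makeup in the helicase results was not tested.

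**Figure D5:**
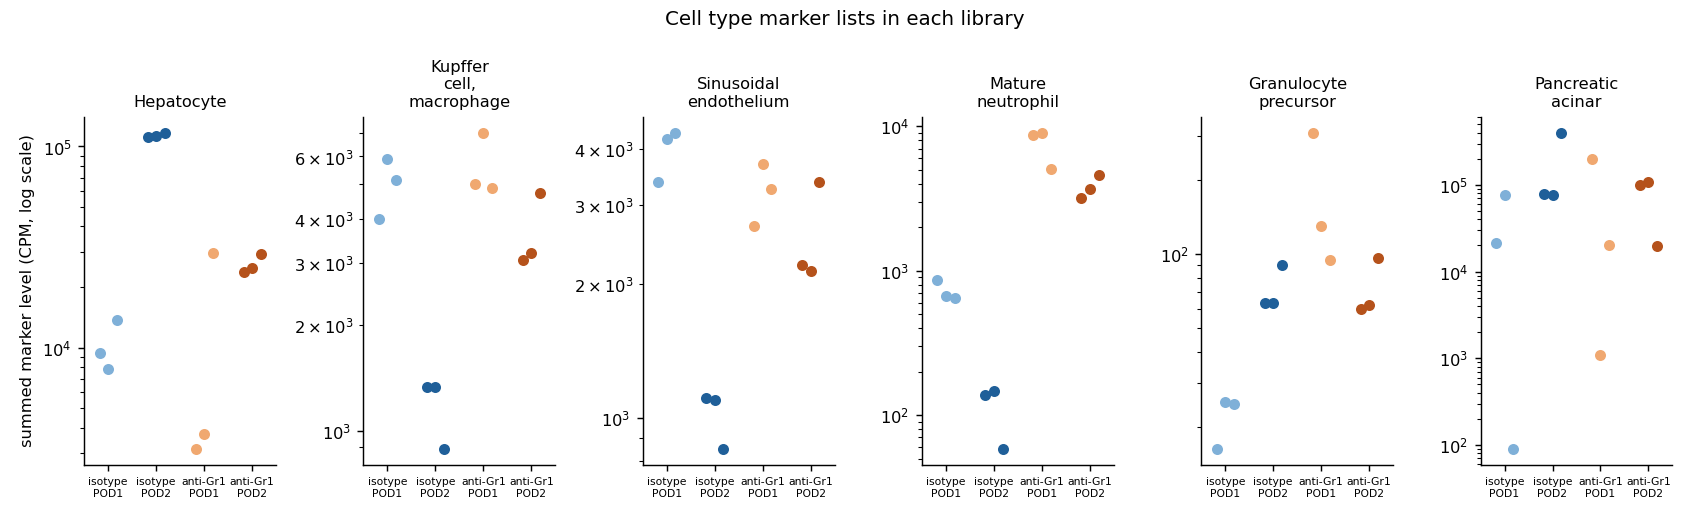
Summed level of 6 cell type marker lists (vertical axes, CPM on a log scale) in each library of the 4 groups. In isotype POD2 the hepatocyte sum was 112034 to 116394 CPM, above every other library, and the Kupffer cell and endothelial sums were below every other library.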

How the data were processed

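The authors deposited raw read counts per gene, whole numbers that were not normalized, per the file headers. Per the submitters' processing notes, the tools were cutadapt, STAR, HTSeq and DESeq2 and the build GRCm38. No source used here gives their versions, the annotation or the strand setting. All 12 columns were matched to samples by name, and 18214 of 18227 identifiers were found in GENCODE M21 (GRCm38), which gave coordinates and exon lengths. In 15 cases a symbol stood for 2 identifiers; none was a helicase gene.

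Libraries of the same group with a chi-square under 10 per gene were summed. Counts were filtered with filterByExpr, scaled by TMM and tested with a robust quasi-likelihood fit in edgeR 4.0.16 (limma 3.58.1, R 4.3.3), with 1 mean per group over all 10 samples and Benjamini-Hochberg adjustment over 15647 genes at a threshold of 0.05. Each SE was taken as the size of the log2 fold change over the square root of its F value. Means ± SD take the mean of summed libraries as 1 value. The fit was run on simulated counts, with independent samples and the same spread for every gene. Those counts lack the near-identical pair that crosses the days, so the run does not bear on the calls made here. Alternatives were DESeq2 1.42.0 (its test and its size factors), no scaling factors, no count filter, acinar genes removed, all libraries separate, a replicate block, only the groups compared, the cross-day pair left out, and each sample left out in turn. Tables were handled in Python 3.11.15.

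The 10 genes, the other lists and the tests were chosen with earlier results of these data known. Named partners are those with up to the 5 smallest p-values per comparison; Gins3, Gins4, Cdc6, Cdt1, the origin recognition genes and the marker genes named singly were added after their values were seen. Most alike are the 10 protein-coding genes with mean log2 CPM of at least 1 and the highest Pearson's r.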

Additional observations from a re-analysis of the deposited data

Results flagged for a closer look

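The antibody effect differed between the days in 6 of the 10 helicase genes by the test of the difference itself, with n = 3 samples per group at POD1 and n = 2 at POD2. They were all lower, where 2.1% of all genes were lower and 3.51% higher. The log2 difference (POD2 minus POD1) was -1.81 for Mcm5, -1.77 for Mcm6, -1.83 for Mcm7, -1.64 for Cdc45, -1.96 for Gins1 and -1.96 for Gins2 in edgeR's quasi-likelihood test, with adjusted p between 0.0161 and 0.044. Without the pair of near-identical libraries from different days only Gins2 passed. The 6 calls were lost without anti-Gr1 POD2 replicate 3, isotype POD2 replicate 3 or the summed anti-Gr1 POD2 replicates 1 and 2. Every other gene lost its call there too, and each of these fits left 1 sample in a group. The 6 values rest on the isotype POD2 libraries, in which hepatocyte marker sums were also the highest and Kupffer cell and endothelial sums the lowest of all libraries. Whether the change in cell makeup has a part in it was not tested.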

How the results depend on the processing

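The 6 genes called between the days with isotype kept their calls in all 15 alternatives, and those called between the antibodies at POD2 in all 14. No called change turned its sign. Of the single-gene results of the antibody and day comparisons under alternatives, 532 kept their direction and side of the threshold, 19 came to pass and 49 uncalled values crossed 0. Of those of the difference between the days, 141 kept both, 44 no longer passed and 5 uncalled values crossed 0; Mcm6 passed in 8 of 19 alternatives, Cdc45 in 9, Mcm5 in 11, Gins1 in 12, and Mcm7 and Gins2 in 15. The difference between the days was the least stable. Without scaling factors 2 of the 10 genes were lower, as were 128 of 15647 genes. When 1 POD1 sample was left out 3 to 6 of the 10 were lower, as were 119 to 1005 of all genes. Without the cross-day pair or 1 POD2 sample, a group held only 1 sample. Most calls were then lost, among the 10 genes and among all genes. At POD1 between the antibodies, 0 to 1 passed when 1 sample was left out; counting all 12 libraries separately without the cross-day pair, an alternative chosen after seeing the data, gave 1 at POD1 and 1 between the days with anti-Gr1, each time Mcm10 (-1.86, adjusted p = 0.0142, and 2.12, adjusted p = 0.00954). Counts over all genes ran from 21 to 2301 between the antibodies at POD1 (115 as reported), 806 to 6404 at POD2 (3960), 1587 to 7637 between the days with isotype (5058), 0 to 2564 with anti-Gr1 (0) and 0 to 2539 for the difference (877). The cause was not tested.

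Deviations from the group means showed no clear pairing by replicate number. Of 18 same-numbered pairs 6 correlated above 0.1 (range -0.29 to 0.36), and 5 of 12 libraries matched best with their own number. This check cannot exclude a pairing, because the near-identical libraries entered it as separate ones and shape these deviations. A fit with a replicate block on all 12 libraries tested 15294 genes. Between the days with isotype 8 of the 10 helicase genes were higher, as were 3328 of all genes. At POD2 8 were lower with anti-Gr1, as were 2986 of all genes, and in the difference 6 were lower, as were 883. In the other comparisons 0 of the 10 passed.

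With 2 separate samples per POD2 group, the spread there is known poorly and is shared with POD1. The lowest count behind a value was 59, for Gins1 in 1 library. For Cdc45, Gins1 and Gins2, the least counted genes, the SD over 2 samples can lie below counting error and understate the true spread.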
